A study of Mus musculus with 24 samples.

Results

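The cell cycle and proliferation genes described here are 40 genes that act in DNA replication, mitosis and cell division, taken by symbol from a table of 56980 genes. All 40 were found and all 40 were kept. They were measured in 24 libraries of sorted mouse microglia, macrophages that reside in the brain, taken from 12 animals aged 19 months.

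Every animal was on a C57Bl/6J background with the hTfR mu/hu knock-in, so this allele was shared by all groups. The WT animals were Grn+/+ and the GrnKO animals were Grn-/-, with 6 animals per genotype and 3 animals of each labelled sex per genotype. Grn encodes progranulin, a secreted protein that reaches the lysosome. Brains were dissociated with hyaluronidase, actinomycin D (an inhibitor of transcription) and anisomycin (an inhibitor of translation) present. CD11b+/CD45+ cells were then sorted by autofluorescence at 488 nm, a measure of lipofuscin (undegraded lysosomal material), into a low and a high bin. Each library came from 1000 sorted cells of 1 bin of 1 animal, so the 4 groups (WT low and high, GrnKO low and high) held 6 libraries each and each animal gave both a low and a high library. The gate can also hold other CD11b+/CD45+ cells, such as monocytes and neutrophils.

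A dividing cell expresses these genes in waves. Genes for licensing and copying DNA, such as the MCM helicase subunits and Pcna, rise around the G1 to S transition under E2F factors, and genes for chromosome segregation, such as Ccnb1, Aurka and Birc5, rise in G2 and mitosis through promoter elements read by the DREAM and B-Myb complexes together with NF-Y. Adult microglia renew slowly by local division that depends on Csf1r signalling, and they can proliferate in disease. Some members, such as Stmn1 and Hmgb2, are also expressed in cells that do not divide.

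The promoters of 4 members are shown, each with at least 1 of the elements searched for, from 3 mitotic members and 1 S phase member. Each is the 160 bases before the annotated transcript start, 5′ to 3′ on the gene's own strand, from RefSeq on GRCm38.p6, with capitals for CCAAT (the NF-Y element), TTTGAA (the cell cycle homology region) and TTTNNCGC (an E2F element) on either strand. Ccnb1 is at chr13:100786487-100786646 (minus strand), Cdk1 at chr10:69352913-69353072 (minus strand), Mki67 at chr7:135716380-135716539 (minus strand) and Mcm5 at chr8:75109349-75109508 (plus strand).
Ccnb1: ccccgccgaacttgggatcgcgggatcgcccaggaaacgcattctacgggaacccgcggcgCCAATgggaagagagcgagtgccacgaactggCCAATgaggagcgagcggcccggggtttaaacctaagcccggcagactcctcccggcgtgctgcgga
Cdk1: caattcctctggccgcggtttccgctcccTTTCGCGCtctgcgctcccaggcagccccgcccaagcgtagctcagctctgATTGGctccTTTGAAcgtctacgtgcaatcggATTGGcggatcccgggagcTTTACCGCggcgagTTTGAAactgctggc
Mki67: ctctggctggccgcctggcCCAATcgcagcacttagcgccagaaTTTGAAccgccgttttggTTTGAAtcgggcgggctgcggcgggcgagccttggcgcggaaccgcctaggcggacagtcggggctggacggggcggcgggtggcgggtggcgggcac
Mcm5: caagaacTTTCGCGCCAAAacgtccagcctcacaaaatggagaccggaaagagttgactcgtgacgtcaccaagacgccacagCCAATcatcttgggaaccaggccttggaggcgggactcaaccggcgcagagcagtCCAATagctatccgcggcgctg
In Mcm5, the run of 12 capitals is an E2F match on each strand that overlap. Over the full RefSeq window of 250 bases before to 50 bases after the start, 33 of the 40 members had an entry, and Mcm4, Ccne2, Ccna2, Aurkb, Tpx2, Kif20a and Stmn1 had none. CCAAT on either strand was in 29 of the 33 windows (87.9%), against 37.9% of the windows of 27025 genes. TTTGAA was in 15 of 20 mitotic members (75.0%) and in 1 of 11 S phase members (9.09%), against 18.1% of all windows. TTTNNCGC was in 6 of 11 S phase members (54.5%) and in 1 of 20 mitotic members (5.0%), which was Cdk1, against 5.27% of all windows. Ccnb1 had only CCAAT, and Birc5, Nusap1 and Ccne1 had none of the 3 elements. These matches describe letters in a window and were not tested against binding.

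The libraries held 12915578 to 46759864 counts, and 10 counts were worth 0.23 to 0.758 CPM (counts relative to the library total, after TMM scaling), the scale of every level below. Grn was 439 to 1480 CPM in the WT libraries and 0.52 to 20.3 CPM in the GrnKO libraries. All 9 microglial markers were detected in every group. Their sum was 11600 to 26000 CPM (median 20500) in WT low, 13900 to 31900 (24300) in WT high, 15100 to 19700 (18300) in GrnKO low and 21700 to 28600 (22600) in GrnKO high. The GrnKO bins did not overlap in this sum, and its part in the differences between bins was not tested. Marker sums of other blood cells differed between bins and genotypes: the T and NK cell sum was 61.0 to 402 CPM in WT low, 21.3 to 169 in WT high, 364 to 1200 in GrnKO low and 42.9 to 250 in GrnKO high, and the neutrophil sum was 1650 to 22100, 14.6 to 2820, 3810 to 31800 and 26.1 to 3520 CPM in the same order. Erythrocyte markers summed to 4.68 to 37.8, 16.8 to 6620, 54.5 to 37600 and 16.0 to 11100 CPM in that order. In 4 libraries (WT low animals 1 and 9, WT high animal 1 and GrnKO low animal 8) choroid plexus markers summed to 20800 CPM or more. Xist went against the labelled sex in 12 of 12 animals and the labels were used as given.

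The members were patchy. Of the 960 values (40 genes in 24 libraries), 78 were 0, 211 (22.0%) were under 10 counts and 602 (62.7%) were 100 counts or more, with 147 (15.3%) between. The same gene often went from one class to the other between animals of a group: 34 members had under 10 counts in 1 library and at least 100 in another, 33 of them inside at least 1 group and 10 inside every group. The median coefficient of variation inside groups was 0.952 over the members, against 0.644 over the 14090 genes tested. Pcna varied least of the members (0.188) and Kif11 most (1.76).

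**Figure D1:**
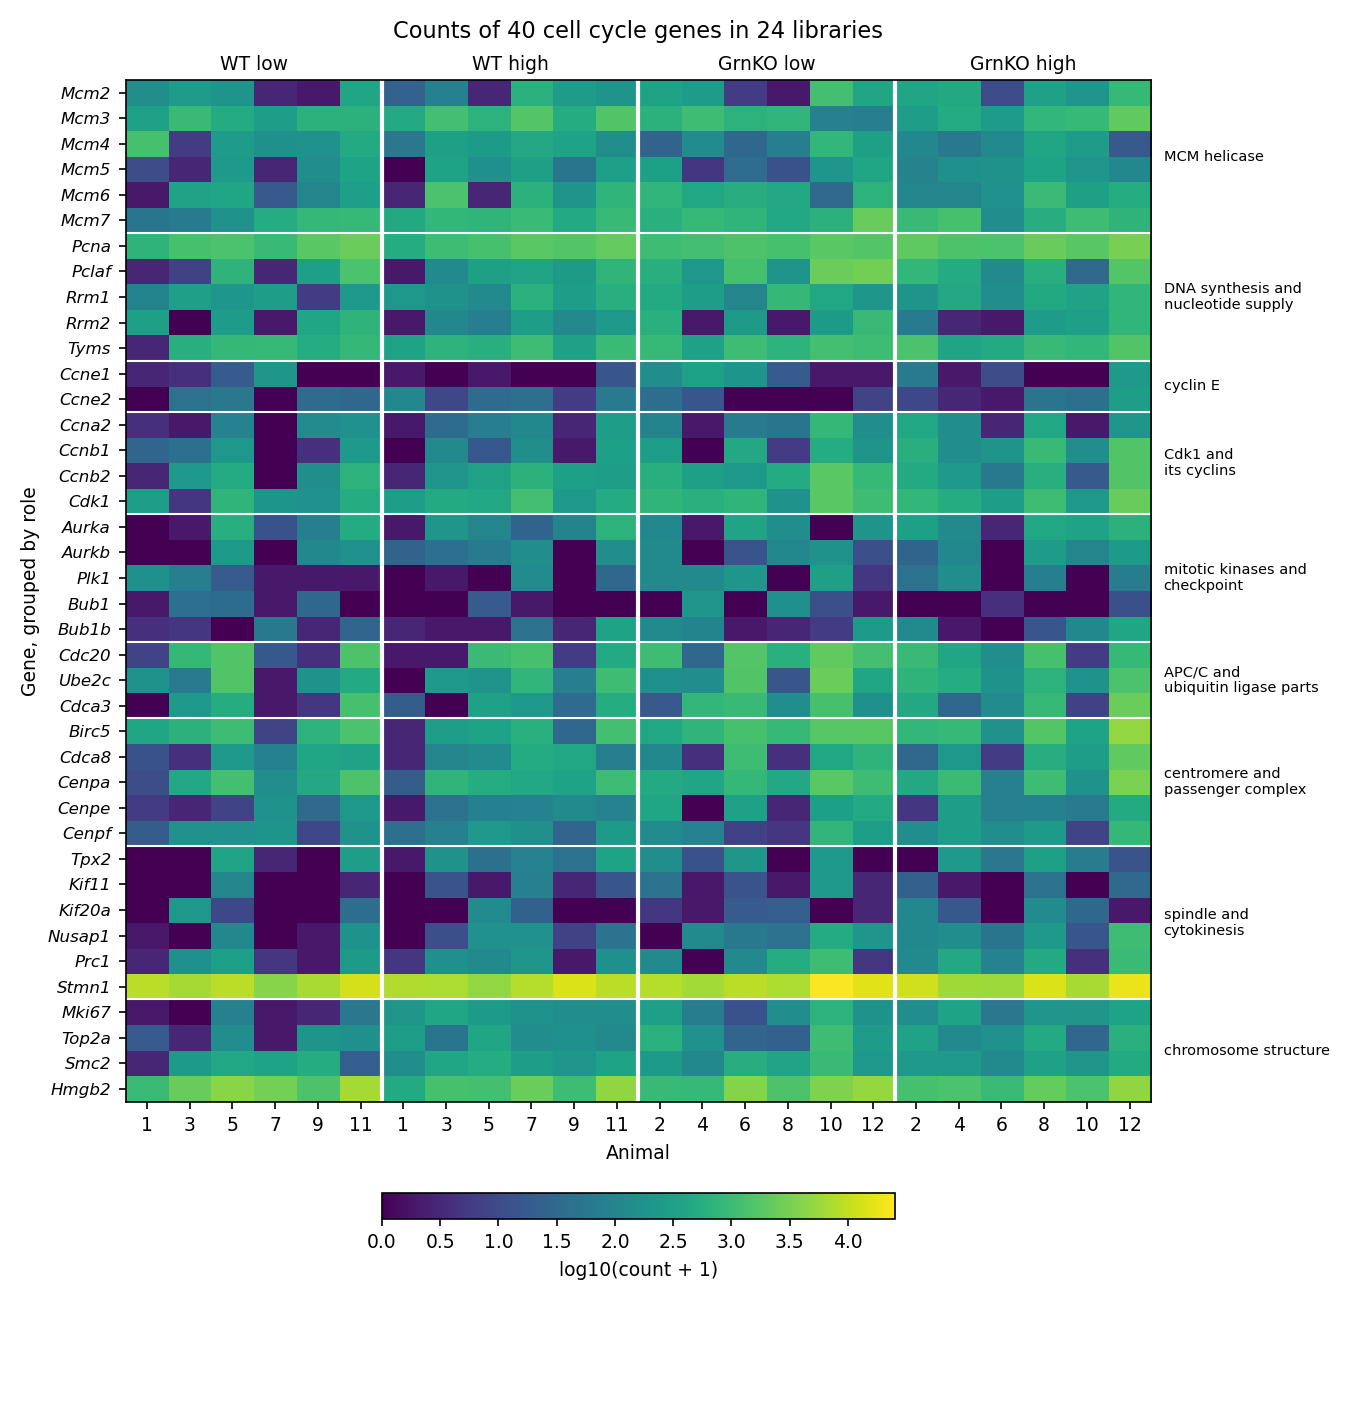
Counts of the 40 members (rows, grouped by role) in the 24 libraries (columns, by group and animal), as log10(count + 1). Stmn1, Hmgb2 and Pcna are filled in every library, while rows such as Bub1, Kif11 and Kif20a run from 0 to over 100 counts between libraries.

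The summed level of the 40 members was higher in the GrnKO groups, within wide spread. It was 725 ± 297 CPM (SD, n = 6; range 373 to 1060) in WT low and 999 ± 321 (720 to 1610) in GrnKO low. It was 650 ± 145 (476 to 886) in WT high and 901 ± 400 (508 to 1500) in GrnKO high. The ranges overlapped in both bins. The genotype difference in the sum, a log2 ratio of 0.46 in the low bin and 0.47 in the high bin, was not tested. Leaving out 1 animal at a time gave 0.27 (without animal 10) to 0.60 in the low bin and 0.27 (without animal 12) to 0.59 in the high bin. Stmn1, which binds tubulin and destabilises microtubules, made up 28.6% to 66.1% of the sum in a library, a share of counts that is not corrected for gene length. In bulk libraries, fewer cells of a type and less RNA per cell cannot be told apart. Without Stmn1 the sums were 421 ± 182, 378 ± 169, 625 ± 181 and 570 ± 294 CPM in the low and high bins of WT and then of GrnKO.

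The 13 S phase members summed to 167 ± 46.4 CPM (108 to 226) in WT low and 242 ± 41.6 (192 to 309) in GrnKO low. In high libraries they summed to 181 ± 69.5 (117 to 294) in WT and 221 ± 60.6 (134 to 305) in GrnKO. The 24 mitotic members summed to 148 ± 121 CPM (28.7 to 346) in WT low and 290 ± 149 (174 to 571) in GrnKO low, and to 134 ± 76.6 (51.4 to 239) in WT high and 279 ± 210 (71.6 to 628) in GrnKO high. The mitotic ranges overlapped in each bin. GrnKO low animal 10 had the highest sums of its group, 1610 CPM for all members and 571 for the mitotic members, and GrnKO high animal 12 had 1500 and 628.

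Within an animal the bins did not order the sums. The sum of all members was higher in the high bin in 3 of 6 WT animals and 2 of 6 GrnKO animals, with a mean log2 difference of -0.07 (SD 0.825) and -0.22 (SD 0.891). The mitotic sum was higher in the high bin in 1 of 6 WT and 3 of 6 GrnKO animals. The sum of the chromosome structure genes (Mki67, Top2a, Smc2 and Hmgb2) was lower in the high bin in 6 of 6 WT animals, and in 3 of 6 GrnKO animals. This sum was mostly Hmgb2, and the 3 other genes had positive fitted folds in WT (median of the 4, 0.84).

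**Figure D2:**
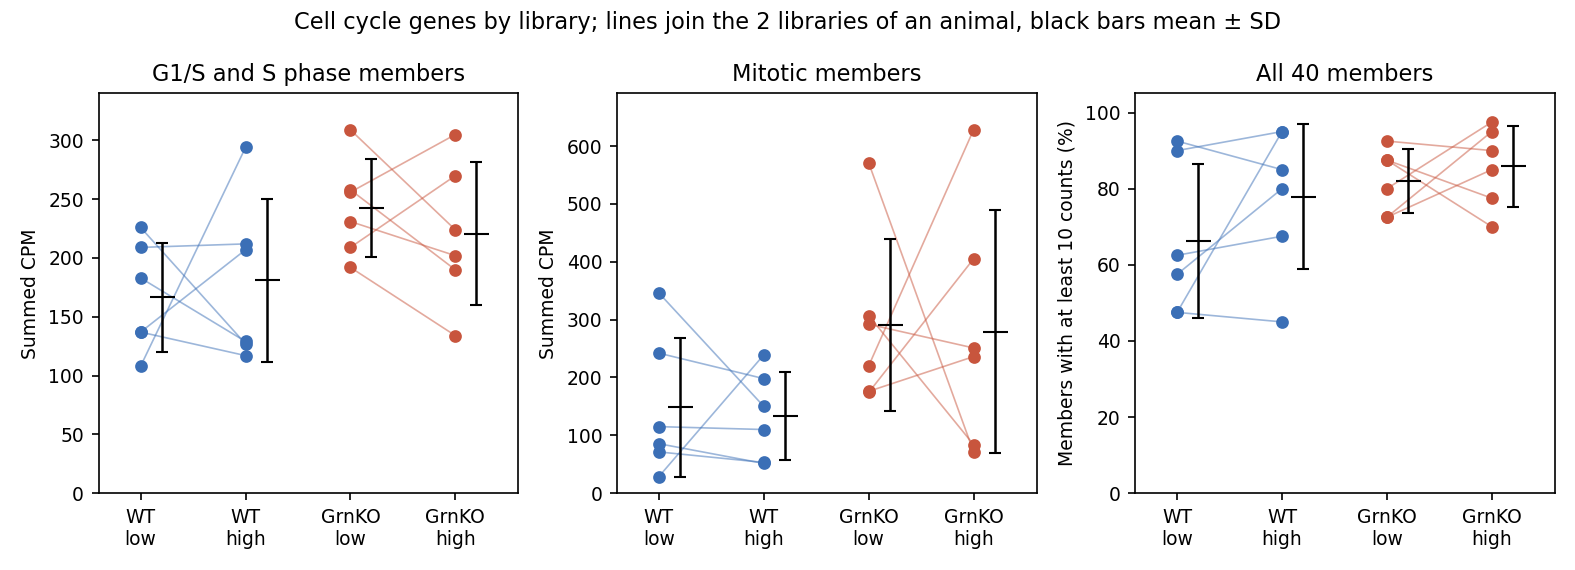
Summed CPM of the S phase members (left) and mitotic members (middle) and the percent of the 40 members with at least 10 counts (right) in each library, by group; lines join the libraries of an animal and black bars are mean ± SD (n = 6). The mitotic sums run from 28.7 to 346 CPM in WT low and from 174 to 571 in GrnKO low, and the lines between bins cross.

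The share of members detected was lowest in WT low. Members with at least 10 counts were 66.2% ± 20.2 of the 40 (SD, n = 6; 47.5% to 92.5%) in WT low, 77.9% ± 19.1 (45.0% to 95.0%) in WT high, 82.1% ± 8.43 (72.5% to 92.5%) in GrnKO low and 85.8% ± 10.6 (70.0% to 97.5%) in GrnKO high. These ranges overlap. Both libraries of animal 1, which has the lowest WT low total (12915578 counts) and high choroid plexus markers, had few, with 19 members in the low and 18 in the high library, and WT low animal 7 also had 19 with 27252454 counts. At a limit of 1 CPM, which does not scale with depth, the counts were 24 ± 7.97, 29.2 ± 6.94, 30.0 ± 4.29 and 32.0 ± 4.47 members in the same order. Library totals ran from 12915578 to 38365567 counts in WT low and from 25085678 to 46759864 in GrnKO high. The share of all genes with at least 10 counts was not compared between groups. Whether the order of the groups is particular to these members was therefore not tested.

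No member passed the test in any comparison. The test was edgeR's quasi-likelihood test across all 14090 genes, with Benjamini-Hochberg adjustment at 0.05. The common biological coefficient of variation was 1.08, and a member that was not called is not shown to be unchanged. In the low bin, GrnKO against WT, 0 of 40 members were called, against 0.326% of all genes tested, and 3 (all higher) had an unadjusted p under 0.05, against 10.2% of all genes. In the high bin 0 of 40 were called, against 0.163% of all genes, and 3 (all higher) had an unadjusted p under 0.05, against 6.3%. High against low gave 0 of 40 in WT (0.248% of all genes) and 0 of 40 in GrnKO (0.206%), with 2 and 1 members under an unadjusted 0.05 (8.25% and 7.82% of all genes). The genotype by lipofuscin interaction gave 0 of 40 and called 0.0% of all genes, with 1 member under an unadjusted 0.05 (5.24% of all genes). With the counts of each animal's bins summed, 0 of the 39 members that passed the filter were called, against 0.246% of 13801 genes, and 7 (all higher in GrnKO) had an unadjusted p under 0.05, against 8.46%. DESeq2 in the same design called 1 member in the low bin (Mki67), 1 for lipofuscin in WT (Mki67) and 2 per animal (Ccnb1 and Birc5), and limma-voom without the animal block called none. Without the 4 libraries high in choroid plexus markers, an alternative chosen after seeing the data, edgeR called 0 members in each comparison. Without a filter on low counts, edgeR called 0 members in the low bin (0.927% of all genes), 1 in the high bin (0.841%), 0 for lipofuscin in WT (0.886%) and in GrnKO (1.07%), 0 for the interaction (0.974%) and 3 per animal (1.08%). With the animal as a fixed block, edgeR called 0 members for lipofuscin, while all genes called went from 35 to 64 in WT and from 29 to 48 in GrnKO.

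Most members had a positive fold in GrnKO. The fitted log2 fold change was above 0 for 35 of 40 members in the low bin (median 0.96; all genes -0.03) and for 34 of 40 in the high bin (median 0.69; all genes -0.06). Leaving out animal 10 lowered the low bin median to 0.46, and leaving out animal 5 raised it to 1.57. Group means were higher in GrnKO for 87.5% of members in the low bin and 80.0% in the high bin, against 46.3% and 44.7% of all genes tested. The 40 genes share the same libraries, so these counts are not separate observations. With animal bins summed, 34 of 39 folds were above 0 (median 0.79; all genes -0.04), and the median was 1.30 without animal 5. Markers of some other cells had positive genotype folds too, and their part in the members' folds was not tested. Low and then high bin folds were above 0 for 0 and 2 of 7 astrocyte and 0 and 0 of 6 border macrophage markers. In the same order they were so for 1 and 0 of 5 choroid plexus and 4 and 0 of 5 endothelial markers. For B cells it was 5 and 1 of 6, and for neutrophils 8 and 2 of 8 markers. Monocyte markers had 4 of 7 in each bin, oligodendrocyte lineage markers 5 and 2 of 7, and neuronal markers 1 of 5 in each. The fold was above 0 for 13 of 15 T and NK cell markers in the low bin (median 1.66), 12 of 15 in the high bin (median 0.77) and 14 of 15 per animal, where 9 had an unadjusted p under 0.05, and for 5 of 5 erythrocyte markers in both bins (low bin median 9.98, high bin median 0.91). For lipofuscin the folds were split, with 19 of 40 above 0 in WT (median -0.07) and 15 of 40 in GrnKO (median -0.14). That split depended on the fit. With the animal as a fixed block, 26 of 40 were above 0 in WT (median 0.27) and 21 of 40 in GrnKO (median 0.03), and with limma-voom and the animal as a random block 29 of 40 (median 0.78) and 21 of 40 (median 0.03). No member had GrnKO libraries all above or all below the WT libraries in either bin, against 1.16% of all genes in the low bin and 1.07% in the high bin. The genotype folds in the 2 bins come from the same animals.

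**Figure D3:**
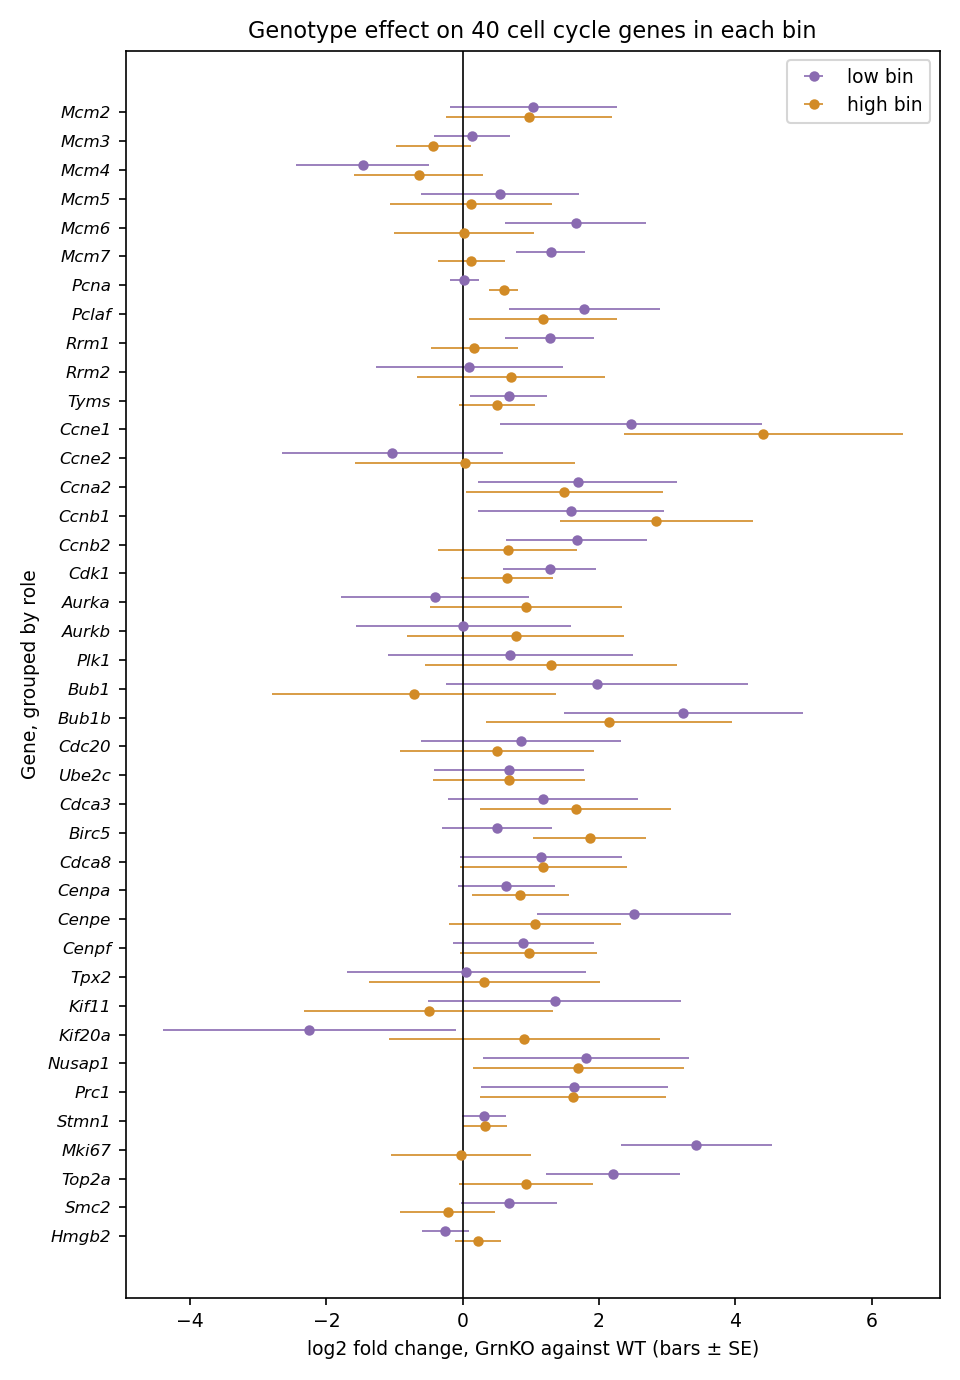
Log2 fold change of each member, GrnKO against WT, in the low (purple) and high (orange) bin, with bars of ± 1 SE from edgeR. Of the 40 points, 35 lie above 0 in the low bin and 34 in the high bin, and none was called at an adjusted p of 0.05.

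Of the MCM helicase genes, which form the ring that unwinds DNA at replication forks, all 6 were tested and none was called. Their sum was 69.2 ± 37.2 CPM in WT low, 91.1 ± 44.8 in WT high, 95.1 ± 27.4 in GrnKO low and 84.5 ± 27.4 in GrnKO high. Mcm7 ran from 2.21 to 22.9 CPM (median 11.5) in WT low and from 17.8 to 55.3 (median 25.3) in GrnKO low. WT low animals 1, 3, 5 and 7 were below every GrnKO low animal and the others overlapped, with a log2 fold change of 1.29 ± 0.50 (SE) and an adjusted p of 0.320 in edgeR. High bin medians of Mcm7 were 24.9 CPM in WT and 25.4 in GrnKO. Mcm5 was 0.0644 to 8.3 CPM (median 2.27) in WT low, 0 to 11.3 (5.99) in WT high, 0.177 to 14.9 (3.28) in GrnKO low and 2.58 to 11.5 (5.99) in GrnKO high, with the groups overlapping throughout. The lowest exact p over its 4 comparisons was 0.406. Mcm4 was the only one of the 6 with a negative fold in the low bin; its mean of 21.6 CPM in WT low included 1 library at 98.5 CPM and its median was 7.25.

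Pcna, the sliding clamp that holds DNA polymerase on its template, was the steadiest member. It was 31.2 to 59.2 CPM (median 49.9) in WT low, 29.4 to 61.0 (41.1) in WT high, 39.2 to 56.4 (51.8) in GrnKO low and 54.2 to 79.2 (65.5) in GrnKO high. GrnKO high was the highest group, though its lowest library lay below the highest WT high library. The mean was 65.9 CPM in GrnKO high and 43.5 in WT high, a log2 fold change of 0.60 ± 0.21 (SE), with an unadjusted p of 0.00814 and an adjusted p of 0.431 in edgeR. In an exact two-sided permutation test of the 6 against 6 libraries the p was 0.00866, where the smallest possible is 0.00216. It was higher in the high bin in 6 of 6 GrnKO animals (49.4 to 65.9 CPM, exact sign-flip p = 0.0312, which is the lowest value possible with 6 animals) and in 1 of 6 WT animals. The interaction had a log2 fold change of 0.58 and an adjusted p of 0.977. These exact p are 2 of 32 run over 8 members (Mki67, Top2a, Pcna, Cdk1, Ccnb1, Mcm5, Stmn1 and Hmgb2), of which 7 were under 0.05, and they are not adjusted.

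Rrm1 encodes the large subunit of ribonucleotide reductase, which makes deoxynucleotides. It was 0.135 to 10.7 CPM (median 7.02) in WT low and 2.9 to 37.3 (12.2) in GrnKO low, overlapping, with an adjusted p of 0.521 in edgeR. Pclaf, a Pcna-binding protein, ran from 0.0644 to 33.1 CPM in WT low and from 8.24 to 71.5 in GrnKO low. Rrm2 and Tyms, which supply deoxynucleotides, overlapped between all groups. The cyclin E genes, which drive the entry into S phase, were under 10 counts in 25 of 48 values. Ccne1 was 0 to 0.336 CPM in WT high, with 3 libraries at 0, and 0 to 5.4 CPM in GrnKO high, with 2 at 0. Its log2 fold change of 4.41 rests on such low counts and had an adjusted p of 0.739 in edgeR.

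Cdk1, the kinase that drives mitosis, and its cyclins had the largest median log2 fold change of any role in the low bin (1.63). Cdk1 was 0.143 to 25.9 CPM (median 9.33) in WT low and 7.8 to 52.2 (26.4) in GrnKO low. The groups overlapped, and the means of 11.8 and 28.4 CPM differed with an exact permutation p of 0.0411. In the high bin Cdk1 was 6.13 to 38.5 CPM (median 14.5) in WT and 6.63 to 56.4 (23.9) in GrnKO, with an exact permutation p of 0.299. Ccnb1, the mitotic cyclin B1, was 0 to 7.61 CPM (median 1.70) in WT low, 0 to 7.2 (2.17) in WT high, 0 to 14.6 (8.73) in GrnKO low and 4.22 to 37.6 (14.2) in GrnKO high. In the high bin GrnKO animals 2, 6, 8 and 12 stood at 8.36 CPM or more, above all 6 WT libraries, and the others overlapped with WT. The means of 2.73 and 17.8 CPM differed with an exact permutation p of 0.013, while edgeR gave a log2 fold change of 2.84 and an adjusted p of 0.827. Per animal, Ccnb1 had a log2 fold change of 2.44 ± 0.78 (SE) and an adjusted p of 0.325, and Cdk1 one of 0.98 ± 0.34 and 0.386.

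The mitotic kinases and checkpoint genes (Aurka, Aurkb, Plk1, Bub1 and Bub1b) were under 10 counts in 43.3% of values. Bub1, a kinase of the spindle checkpoint, reached 10 counts in 3 of 6 GrnKO low libraries (0 to 8.84 CPM) and in 1 of 6 GrnKO high libraries (0 to 0.258 CPM), and its adjusted p of 0.552 in edgeR rests on these few. Aurka, the kinase of the spindle poles, was 0 to 20.4 CPM in WT low and 0.088 to 15.5 in GrnKO high. Cdc20, Ube2c and Cdca3 act in or with ubiquitin ligases that end mitosis or permit entry to it. They were under 10 counts in 33.3% of WT low, 27.8% of WT high, 0.0% of GrnKO low and 11.1% of GrnKO high values.

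Birc5, or survivin, is part of the chromosomal passenger complex that directs Aurora B to the centromere. It was 0.225 to 38.1 CPM (median 26.9) in WT low, 0.113 to 28.8 (9.93) in WT high, 19.6 to 49.5 (38.1) in GrnKO low and 7.48 to 113 (30.2) in GrnKO high. In the high bin WT animals 1 and 9 lay at 0.715 CPM or less, below every GrnKO library, and the others overlapped. The log2 fold change there was 1.86 ± 0.83 (SE) with an adjusted p of 0.696 in edgeR, and per animal it was 1.16 ± 0.33 with an adjusted p of 0.231, the lowest of any member in that comparison. Without a filter on low counts edgeR called Birc5 in the high bin (adjusted p = 0.00837, range over all settings 0.00837 to 0.951) and Birc5, Ccnb1 and Pclaf per animal. Cenpa, the centromeric histone variant, had medians of 14.2, 14.4, 23.9 and 26.1 CPM in the low and high bins of WT and then of GrnKO, with overlapping ranges.

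The 6 spindle and cytokinesis genes (Tpx2, Kif11, Kif20a, Nusap1, Prc1 and Stmn1) were under 10 counts in 35.4% of values, though Stmn1 never was. Kif11, the kinesin that separates spindle poles, was 0 in 4 of 6 WT low libraries and reached 10 counts in 3 of 6 libraries of each other group. Kif20a, a kinesin of cytokinesis, was 0 in 3 of 6 WT low and 4 of 6 WT high libraries, and its high against low fold in GrnKO had an adjusted p of 0.934. Stmn1 was 129 to 674 CPM (median 268) in WT low, 147 to 418 (248) in WT high, 263 to 660 (340) in GrnKO low and 199 to 462 (331) in GrnKO high. The groups overlapped and the exact permutation p was 0.472 in the low bin and 0.34 in the high bin. WT low animal 1, with the highest Stmn1 (674 CPM), also had the highest sum of neuronal markers (104 CPM), and Dcx, a neuroblast marker, was under 10 counts in every library. The same library had 2830 CPM of oligodendrocyte lineage markers, and GrnKO low animal 10, with 660 CPM of Stmn1, had 14.2 CPM of neuronal markers. The part of neuronal RNA in the Stmn1 level was not tested.

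Mki67 encodes Ki-67, the coat protein of mitotic chromosomes and a common label of cycling cells. In WT low its counts were 1, 0, 80, 1, 2 and 56 in animals 1, 3, 5, 7, 9 and 11, and in the high bin of the same animals they were 210, 380, 250, 180, 150 and 150. In GrnKO animals 2, 4, 6, 8, 10 and 12 the counts were 300, 73, 12, 140, 690 and 180 in the low bin and 140, 360, 54, 200, 210 and 360 in the high bin. WT low was the group that stood apart: 4 of its 6 libraries held 2 counts or fewer, while the 18 libraries of the other groups held 12 or more. As CPM, WT low was 0 to 2.77 (median 0.0649), WT high 3.6 to 12.3 (6.63), GrnKO low 0.355 to 19.0 (5.11) and GrnKO high 2.38 to 13.4 (6.46).

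All 6 WT high libraries lay above all 6 WT low libraries for Mki67, the only member with no overlap between bins in WT, against 0.681% of all genes. In GrnKO no member had this, against 1.41% of all genes. The mean was 0.709 CPM in WT low and 7.47 in WT high, with a log2 fold change of 3.44 ± 1.11 (SE), an unadjusted p of 0.00462 and an adjusted p of 0.267 in edgeR. The exact sign-flip p was 0.0312, with 6 of 6 animals higher. With the animal as a random block, limma-voom called Mki67 (adjusted p = 0.0331; range over all settings 0.0149 to 0.849). GrnKO low, at a mean of 7.8 CPM, overlapped WT low, with a log2 fold change of 3.43 ± 1.11 and an adjusted p of 0.201 in edgeR, and an exact permutation p of 0.00866. The high bin means were 7.47 CPM in WT and 7.0 in GrnKO (exact permutation p = 0.838). The interaction log2 fold change was -3.45 ± 1.47, with an unadjusted p of 0.0265 and an adjusted p of 0.875 in edgeR, so the difference between the bins' genotype effects was not called.

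Top2a, the topoisomerase that untangles chromosomes before segregation, did not share the separation of Mki67. It was 0.0322 to 5.13 CPM (median 2.54) in WT low, 1.62 to 16.4 (4.29) in WT high, 0.769 to 30.2 (6.75) in GrnKO low and 0.813 to 16.2 (9.63) in GrnKO high, and every pair of groups overlapped. In the low bin the log2 fold change was 2.21 ± 0.98 (SE), with an adjusted p of 0.422 in edgeR and an exact permutation p of 0.106. Hmgb2, a chromatin protein, was 40.5 to 149 CPM (median 91.2) in WT low, 27.7 to 110 (39.0) in WT high, 39.8 to 117 (80.6) in GrnKO low and 42.2 to 108 (48.6) in GrnKO high. It was lower in the high bin in 6 of 6 WT animals, with means of 98.3 and 54.1 CPM, an exact sign-flip p of 0.0312, a log2 fold change of -0.96 ± 0.34 (SE) and an adjusted p of 0.372 in edgeR. Mki67 and Hmgb2 thus had opposite signs between the WT bins. The monocyte marker sum was 320 to 1530 CPM in WT low and 14.6 to 79.7 CPM in WT high, with 4 of 7 monocyte markers lower at an adjusted p under 0.05 in edgeR, and the part of these cells in the Hmgb2 difference was not tested.

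**Figure D4:**
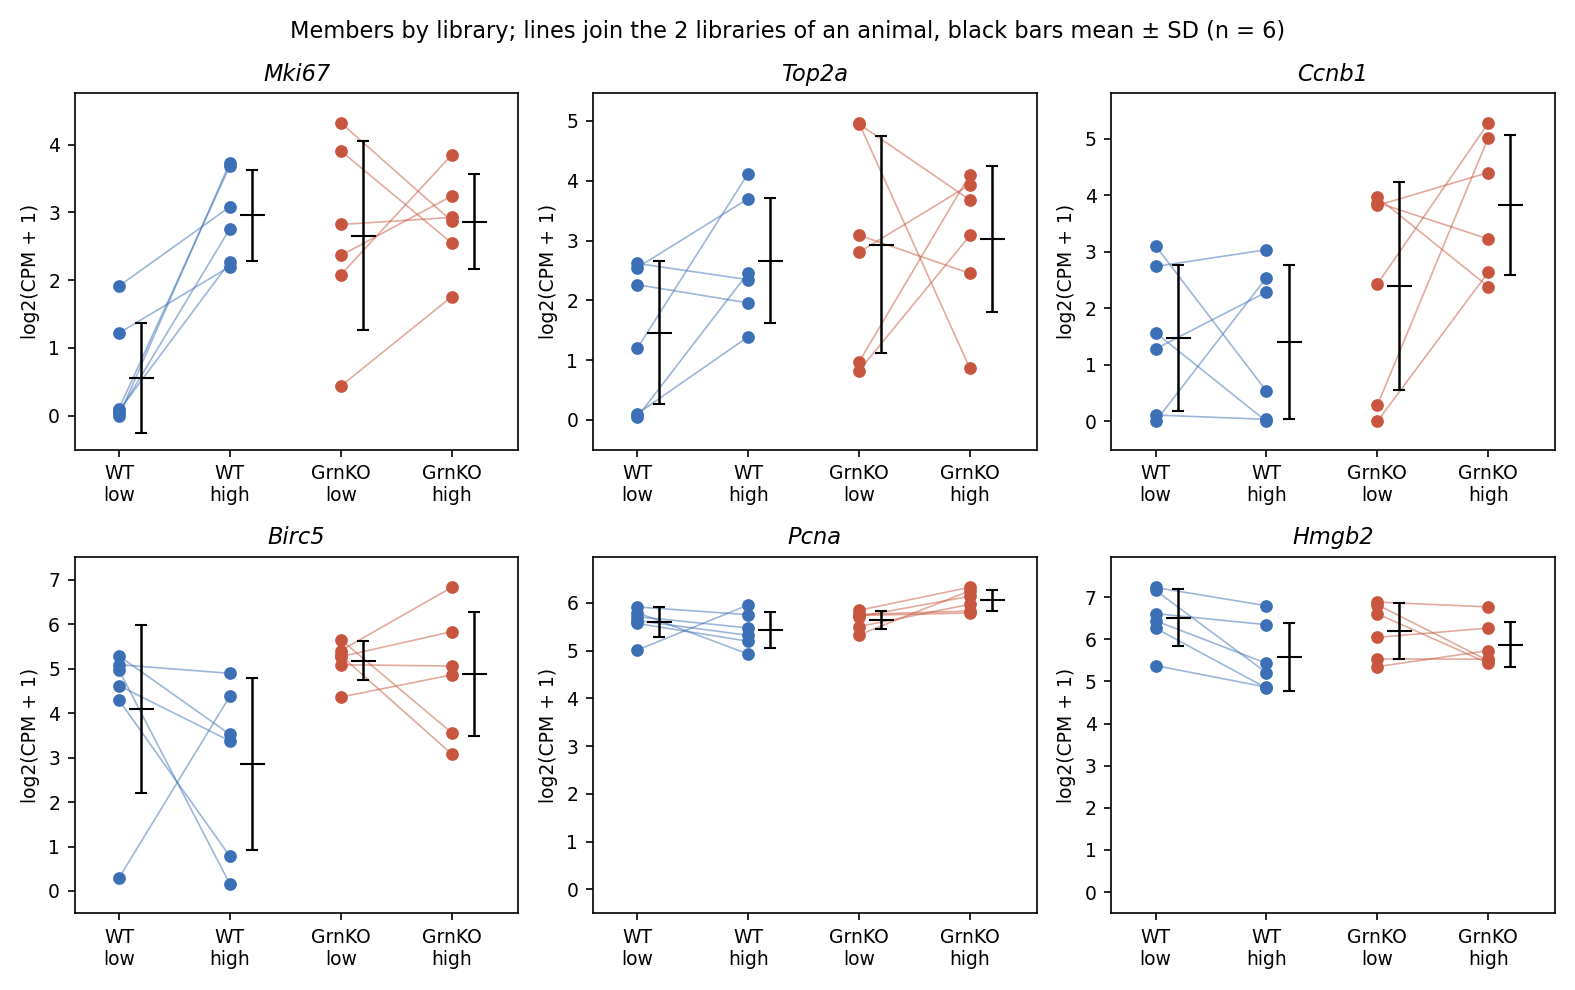
Levels of 6 members as log2(CPM + 1) in each library, by group; lines join the libraries of an animal and black bars are mean ± SD (n = 6). Mki67 is higher and Hmgb2 lower in the high bin of all 6 WT animals, and Pcna is higher in the high bin of all 6 GrnKO animals.

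Other genes of the cell cycle were read for comparison. Of 28 G1 regulators, 26 were tested and none was called by genotype in either bin (1 higher in the low bin and 1 lower in the high bin at an unadjusted p under 0.05, against 10.2% and 6.3% of all genes). Cyclin D2 (Ccnd2), which activates Cdk4 and Cdk6 in G1, fell from the low to the high bin in GrnKO. It was 24.7 to 117 CPM (median 75.9) in GrnKO low and 2.2 to 20.7 (9.97) in GrnKO high, with no overlap and 6 of 6 animals lower, a log2 fold change of -2.88 ± 0.61 (SE) and an adjusted p of 0.0441 in edgeR. In WT it was 14.3 to 93.4 CPM (median 36.5) in the low and 2.77 to 38.3 (12.9) in the high bin, which overlap, with a log2 fold change of -1.34 and an adjusted p of 0.512. The interaction had an unadjusted p of 0.0668. Leaving out any 1 of 8 of the 12 animals (2, 4, 6, 7, 8, 10, 11 or 12) ended the call, with an adjusted p of 0.0597 to 0.188. Cdk6 was 9.45 to 99.7 CPM in GrnKO low and 5.72 to 20.8 in GrnKO high (log2 fold change -1.75, adjusted p = 0.140). T and NK cell, B cell, monocyte, neutrophil and erythrocyte marker medians were also higher in GrnKO low than in GrnKO high (740 against 110 CPM for T and NK cells, 878 against 626 for B cells, 730 against 34.1 for monocytes, 9990 against 365 for neutrophils and 9320 against 556 for erythrocytes). Microglial, border macrophage and astrocyte medians were lower in GrnKO low (18300 against 22600, 127 against 184 and 235 against 269 CPM). The part of these cells in the Ccnd2 difference was not tested. Most T and B cells lack CD11b, but their markers were still present in every group. B cell medians were 793 CPM in WT low, 746 in WT high, 878 in GrnKO low and 626 in GrnKO high. In GrnKO low the sum reached 1200 CPM for T and NK cells, and 16100 CPM in animal 2 for B cells. How many of these cells passed the sort gate was not tested.

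**Figure D5:**
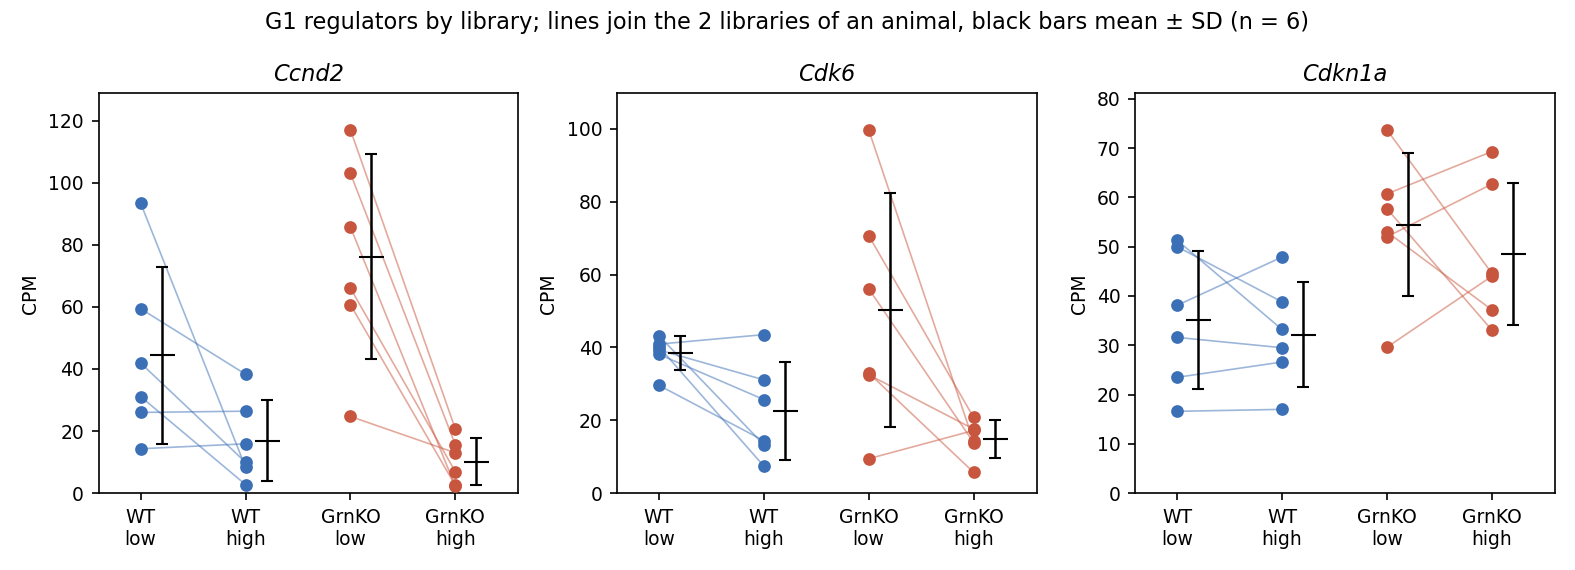
CPM of Ccnd2, Cdk6 and the cell cycle inhibitor Cdkn1a in each library, by group; lines join the libraries of an animal and black bars are mean ± SD (n = 6). Ccnd2 is lower in the high bin of all 6 GrnKO animals, from 24.7 to 117 CPM in the low bin to 2.2 to 20.7 CPM in the high bin.

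Cdkn1a, the p21 inhibitor of cyclin-dependent kinases, was 16.6 to 51.3 CPM (median 34.8) in WT low and 29.6 to 73.7 (55.4) in GrnKO low, with a log2 fold change of 0.64 ± 0.30 (SE) and an adjusted p of 0.466 in edgeR. None of 34 further S phase genes and none of 35 further G2 and M phase genes that were tested (of 36 and 40 listed) was called in either bin by genotype or in either genotype by lipofuscin. At an unadjusted p under 0.05 by genotype, the S phase list had 2 higher and 1 lower in the low bin and 2 higher in the high bin, and the G2 and M phase list had 3 higher and 1 lower, then 2 higher. Of all genes tested, 10.2% in the low bin and 6.3% in the high bin had such a p. The median log2 fold change of these lists in GrnKO was 0.33 and 0.49 in the low bin and 0.33 and 0.54 in the high bin. Racgap1, a cytokinesis regulator, was 0 to 5.8 CPM in WT low and 5.91 to 38.5 in GrnKO low, with an adjusted p of 0.215 in edgeR. These values do not overlap, as in 1.16% of all genes tested. The gap lies between 180 counts in WT low animal 7 and 200 in GrnKO low animal 6. Both were deposited with 2 significant digits, so the gap is within rounding. Of 12 genes of microglial growth factor signalling, 11 were tested and Igf1, an insulin-like growth factor, was the only one called: it was 9.7 to 24.6 CPM in WT low, 48.2 to 112 in WT high, 65.0 to 127 in GrnKO low and 132 to 257 in GrnKO high. Its adjusted p in edgeR was 7.74e-08 for genotype in the low bin and 0.0113 in the high bin, which leaving out animal 2 or 3 raised to 0.0598 or 0.0570.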

How the data were processed

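The table holds estimated counts per gene, deposited by the authors with 2 significant digits, and 8.28% of values between 0 and 10 were not whole. Per the submitters' processing notes, the tools named are R 4.5.1 with edgeR 4.6.2, Salmon 1.10.1 and STAR 2.7.9a, and the build named is GRCm39. The authors also deposited normalized CPM, used here as a signal in an alternative, library sizes as estimated counts, and a normalization factor, a ratio per library. The strand setting of the counting is not given in the sources.

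The libraries were SMARTSeq v4 3′ DE and Nextera XT, read single end without molecular identifiers, per the labels. Counts were rounded, so that a count test could be run. Levels are CPM after TMM scaling. Genes were kept by filterByExpr by group (14090 genes, all 40 members), and edgeR 4.0.16 (R 4.3.3) fitted group and labelled sex with glmQLFit (robust, common biological coefficient of variation 1.08) over all 24 libraries, with Benjamini-Hochberg adjustment over all genes. Per animal, low and high counts were summed and fitted as 6 against 6, where all members but Bub1 passed the filter. Exact permutation and sign-flip tests went through every split or sign in Python 3.11.15. Both were two-sided, the latter on log2(CPM + 1). Detection means at least 10 counts. The edgeR fit was also run on simulated data, at a spread well below the 1.08 of these data and at a spread near it. Limits on its performance were set only at the lower spread. What it recovered at the higher spread is not given here, so how well the fit does at the spread found here is not shown. Promoter windows are from RefSeq on GRCm38.p6, and no coordinate was moved between builds.

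Low and high libraries share an animal, as the labels state. The correlation of their deviations from group means over 7211 genes was -0.01 to 0.32 (median 0.11), and 0.0872 as the consensus in limma. Alternatives were DESeq2 1.42.0, limma-voom 3.58.1, animal blocks, other scalings and filters, no sex term, only the groups compared, and each animal left out. Libraries of 1 group are from separate animals. No 2 libraries held identical values.

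The members and lists were chosen with earlier results of these data known. Named are Mki67, Top2a, Pcna, Cdk1, Ccnb1, Mcm5, Stmn1 and Hmgb2, the 4 members of smallest unadjusted p in each comparison, and called genes and up to 3 of smallest p of the other lists. Members named only to show the range of a role were chosen after their values were seen.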

Additional observations from a re-analysis of the deposited data

Results flagged for a closer look

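In groups of 6 libraries, 52 sets of values (sums and single members) were checked for a library that stands apart from the other 5 of its group, and 5 did. Chance alone sets apart about 1 in 20 such groups where values are normally distributed, and CPM need not be. The sets also overlap, since Stmn1 and the mitotic members are part of the sum of all members. GrnKO low animal 10 had a summed level of all members of 1610 CPM, with the next at 1030, and of the mitotic members of 571 CPM, with the next at 307. Its Stmn1 was 660 CPM, with the next at 374. WT low animal 1 had 674 CPM of Stmn1, with the next at 308, and WT high animal 7 had 38.5 CPM of Cdk1, with the next at 16.4.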

How the results depend on the processing

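Over 1198 recomputed values, 1119 stayed on the same side of their threshold or within their spread, and no called value changed sign. The number of members called was 0 in edgeR with every animal left out in turn, in all 6 comparisons (lowest 0, highest 0). It became 1 with DESeq2 in the low bin (Mki67, adjusted p = 0.0138, range over settings 0.0138 to 0.632) and for lipofuscin in WT (Mki67, 0.0149). It became 1 without a filter on low counts in the high bin (Birc5), and 1 with the replicate block (animal random, limma-voom) for lipofuscin in WT (Mki67, 0.0331). Per animal it became 3 without a filter (Pclaf, Ccnb1 and Birc5, whose adjusted p was 0.0239 with a range of 0.0239 to 0.446) and 2 with DESeq2 (Ccnb1, 0.0321 with a range of 0.0059 to 0.555, and Birc5, 0.0358). The replicate block changed no other call of a member. The fixed animal block could not be fitted for genotype. Over all genes, calls in the low bin went from 46 to 361 with DESeq2, 313 without a filter, 120 without the choroid plexus libraries and 21 with only the groups compared. In the high bin they went from 23 to 192, 284 and 61 in the first of these settings, and to 46 with limma-voom with or without the block. For lipofuscin they went from 35 in WT to 263, 299, 82 and 7, and from 29 in GrnKO to 302, 360, 57 and 61, in the same order. With the random block they were 60 in WT and 105 in GrnKO, and with limma-voom without it 71 in GrnKO. The interaction went from 0 to 74 with DESeq2, 329 without a filter and 1 with limma-voom. Per animal, calls went from 34 to 272 with DESeq2, 363 without a filter, 81 with limma-voom and 115 without the animals of the choroid plexus libraries. Leaving out 1 animal gave 30 to 116 calls in the low bin, 8 to 50 in the high bin, 7 to 53 in WT, 2 to 62 in GrnKO and 17 to 142 per animal. The cause was not tested. The median log2 fold change of the members kept its sign for genotype when 1 animal was left out (0.46 to 1.57 in the low bin, 0.48 to 1.03 in the high bin), but not for lipofuscin, where no member was called in edgeR: in WT it was -0.07 in edgeR, -0.49 (without animal 7) to 0.43 (without animal 5), 0.27 with the fixed block and 0.78 with limma-voom, and in GrnKO -0.14, -0.44 (without animal 12) to 0.38 (without animal 10) and 0.03 with the fixed block. Scaling by library size alone moved the median of all genes from -0.03 to -0.17 in the low bin, and that of the members from 0.96 to 0.81. Of the members' values, 22.0% were under 10 counts, where counting error is large. Without molecular identifiers, the error of the higher values cannot be read from their counts either.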
